A study of Mus musculus with 8 samples.

Results

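The genes described here make, move, sense and break down dopamine in midbrain dopaminergic (mDA) neurons. They are the 9 genes Th, Ddc, Gch1, Slc6a3, Slc18a2, Slc10a4, Drd2, Maoa and Maob, each measured by the single probeset whose only gene symbol in the platform annotation is that of the gene. These 9 probesets belong to a table of 35512, of which 21789 carry 1 gene symbol. Live cells expressing EGFP and excluding propidium iodide were sorted by flow cytometry from C57Bl/6 pups (C57Bl/6J in the methods) aged P1 to P4, after lateral (SNc) and medial (VTA) ventral midbrain had been separated. The 4 groups were SNc WT and VTA WT from Pitx3+/+;Th-EGFP+/- pups, and the KO groups of both regions from Pitx3-/-;Th-EGFP+/- pups, with 2 Affymetrix Mouse Gene 1.0 ST arrays a group and 8 in all. All 4 groups thus carried the EGFP transgene. EGFP was driven by Th regulatory sequence, so every cell was taken for activity of that sequence, and Th is not independent of the sort. Frozen batches of sorted cells were combined for each sample, and no source used here says that the duplicates came from separate animals. The p-values therefore measure only how far these samples spread, and that spread may be technical.

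Dopamine is made from tyrosine by tyrosine hydroxylase and aromatic amino acid decarboxylase, loaded into synaptic vesicles by the vesicular monoamine transporter, and taken back into the neuron by the dopamine transporter at the plasma membrane. D2 receptors on the dopaminergic neuron itself sense released dopamine and restrain firing and release, while monoamine oxidases degrade dopamine in the cytosol. Pitx3 is a homeodomain transcription factor of mDA neurons. By the study's account, the SNc of newborn Pitx3-/- pups has already lost the neurons that would express Pitx3, whereas the corresponding VTA neurons are still there at this age. In RNA from sorted populations, fewer cells of a type and less RNA per cell cannot be told apart.

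All 9 genes had a group mean above the signal floor of 60 on the linear scale (5.91 on the log2 scale) in at least 1 group and were tested with limma across 22112 probesets. A gene is called here at a Benjamini-Hochberg adjusted p under 0.05 over all of these. The 7 comparisons made from the 4 groups share arrays and are not independent of each other. All values below are log2 expression values, in the order of the duplicate arrays, and differences are on the same log2 scale. Levels of different genes are not compared, since their probes differ.

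The upstream sequences of Drd2, Slc18a2, Th and Ddc are shown first. Drd2 and Slc18a2 were lower on every KO array than on every WT array, and Th and Ddc were not. Within each region, however, both KO arrays of Ddc lay below both WT arrays, while those of Th overlapped. Ddc is not a contrast to Slc18a2 in size. Averaged over both regions, the KO against WT difference was -0.41 for each, and neither was called. In SNc the difference was -0.64 for Ddc and -0.32 for Slc18a2. Each sequence is the stretch before a RefSeq transcript start in build GRCm38.p6, read 5′ to 3′ on the strand of the gene, with no base of the annotated gene span. For Drd2 the last 43 of the 250 bases before the start lie inside that span. Its printed stretch of 207 bases therefore stops short of the start. The Drd2 stretch is chr9:49340153-49340359 on the plus strand, the Slc18a2 stretch chr19:59260628-59260877 on the plus strand, the Th stretch chr7:142899996-142900245 on the minus strand and the Ddc stretch chr11:11898145-11898394 on the minus strand. Capitals mark matches, on either strand, to the GC box CCGCCC, the TATA box TATAAA, the Nr4a2 response element AAAGGTCA or the bicoid-type homeodomain motif TAATCC.
Drd2: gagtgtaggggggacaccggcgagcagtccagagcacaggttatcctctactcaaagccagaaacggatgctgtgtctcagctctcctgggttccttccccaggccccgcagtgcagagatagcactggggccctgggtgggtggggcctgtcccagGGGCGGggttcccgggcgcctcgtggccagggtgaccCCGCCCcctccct
Slc18a2: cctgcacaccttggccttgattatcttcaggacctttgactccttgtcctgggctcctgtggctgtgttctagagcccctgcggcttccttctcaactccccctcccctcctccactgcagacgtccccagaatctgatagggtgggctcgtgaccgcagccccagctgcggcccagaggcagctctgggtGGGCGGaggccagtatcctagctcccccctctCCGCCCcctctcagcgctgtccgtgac
Th: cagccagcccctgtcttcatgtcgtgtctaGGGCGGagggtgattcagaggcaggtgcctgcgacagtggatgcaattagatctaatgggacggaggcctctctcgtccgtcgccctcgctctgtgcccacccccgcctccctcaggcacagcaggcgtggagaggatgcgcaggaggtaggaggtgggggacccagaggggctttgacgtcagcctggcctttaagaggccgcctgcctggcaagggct
Ddc: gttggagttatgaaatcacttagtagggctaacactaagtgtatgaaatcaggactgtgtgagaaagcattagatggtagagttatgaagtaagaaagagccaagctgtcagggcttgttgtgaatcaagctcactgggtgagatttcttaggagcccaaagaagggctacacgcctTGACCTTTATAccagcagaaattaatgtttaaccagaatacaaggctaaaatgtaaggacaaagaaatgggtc
The capitals in Drd2, Slc18a2 and Th are GC boxes, while those in Ddc are a match to the Nr4a2 element, 73 bases before the start, that overlaps a TATA box match at 68 bases. Windows of 250 bases before a start were found for 8 of the 9 genes (9 windows, since Ddc has a pair), and none for Maob. The Slc6a3 window lies inside the annotated gene span and is not printed. The GC box was in 7 of the 9 windows, against 32.7% of 32851 windows of the same length over all genes. The TATA box was in 2 of 9, against 12.4%, and the Nr4a2 element in 1 of 9, against 1.34%. The motif TAATCC was in 0 of 9, against 6.25%. The GC content of the full windows was 68.8% for Drd2, 66% for Slc6a3, 64.4% for Th, 64% for Slc18a2 and 40.8% for this Ddc window. Of the 9 windows, this Ddc window alone lay below the median of 52.4% over all windows. The GC box share was not adjusted for GC content. A match describes letters in a window and is not evidence of binding.

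Synthesis was examined with Th, Ddc and Gch1. Th, which encodes the rate-limiting enzyme of dopamine synthesis, read 10.32 and 10.04 in SNc WT, 10.01 and 10.17 in SNc KO, 10.17 and 10.10 in VTA WT, and 10.16 and 10.34 in VTA KO. Every group overlapped the next in the order of means, and the 8 arrays spanned 0.33. The KO against WT difference averaged over both regions was 0.02 ± 0.10 (SE, adjusted p = 0.984), with a 95% interval of -0.22 to 0.25. That interval bounds the Th difference and does not show that the levels were equal, and cells had been sorted on Th-driven EGFP.

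Ddc, which encodes the decarboxylase that converts L-DOPA to dopamine, read 10.80 and 10.71 in SNc WT, 9.998 and 10.224 in SNc KO, 10.20 and 10.22 in VTA WT, and 9.93 and 10.14 in VTA KO. SNc WT stood alone, above all 6 other arrays. The SNc KO value was 0.64 lower than SNc WT (-0.64 ± 0.13 SE, adjusted p = 0.213) and SNc WT was 0.55 ± 0.13 above VTA WT (adjusted p = 0.123), so neither passed the test. In VTA the genotype difference was -0.17 ± 0.13 (adjusted p = 0.700). The genotype difference in SNc was more negative than that in VTA by 0.47 (-0.47 ± 0.18, unadjusted p = 0.0400), a test that did not pass adjustment (adjusted p = 0.487).

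Gch1 encodes GTP cyclohydrolase, which starts the synthesis of tetrahydrobiopterin, the cofactor of tyrosine hydroxylase. It read 9.89 and 10.17 in SNc WT, 10.03 and 10.29 in SNc KO, 9.35 and 9.53 in VTA WT, and 9.51 and 9.95 in VTA KO. Both SNc means lay above both VTA means. SNc WT lay above VTA WT by 0.59 ± 0.19 (adjusted p = 0.196) and SNc KO above VTA KO by 0.43 ± 0.19 (adjusted p = 0.312). Averaged over both genotypes the region difference was 0.51 ± 0.14 (adjusted p = 0.0968). The VTA KO array at 9.95 exceeded the lower SNc WT array, so that the SNc and VTA arrays were not fully apart. The KO value was not below the WT value in either region, with differences of 0.13 ± 0.19 in SNc (adjusted p = 0.927) and 0.29 ± 0.19 in VTA (adjusted p = 0.660).

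**Figure D1:**
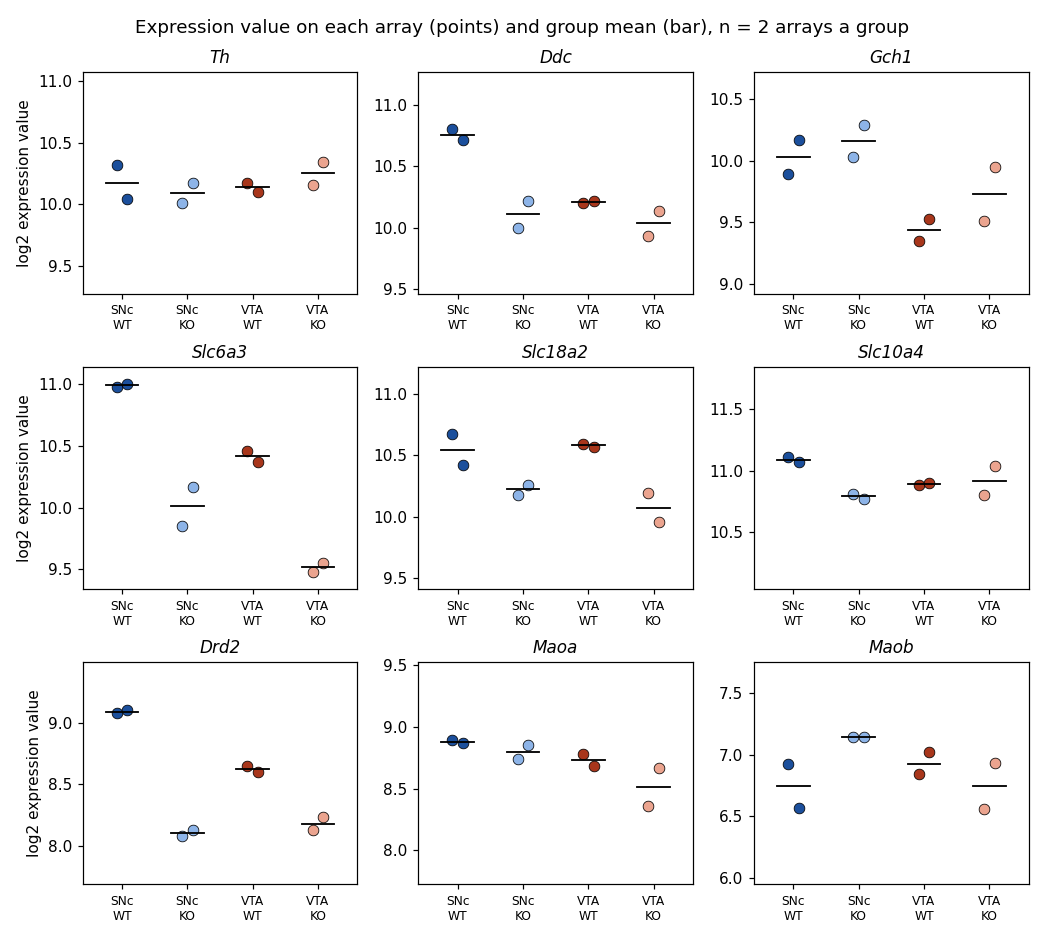
Log2 expression value of each gene (vertical axes, each spanning the same range of log2 units) on each array (points) in each of the 4 groups (SNc on the left, VTA on the right of each panel, WT before KO), with the group mean as a bar. Slc6a3 and Drd2 are lower on all 4 KO arrays than on all 4 WT arrays, Ddc is high in SNc WT alone, and Th overlaps between groups.

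Transport across the plasma membrane and into vesicles was examined next. Slc6a3, which encodes the dopamine transporter, read 10.984 and 11.002 in SNc WT, 9.85 and 10.17 in SNc KO, 10.46 and 10.37 in VTA WT, and 9.48 and 9.55 in VTA KO. From the highest, the order was SNc WT, then VTA WT, then SNc KO and last VTA KO, with no overlap between neighbors. Averaged over both regions, Slc6a3 fell by 0.94 on the log2 scale in the KO (-0.94 ± 0.09 SE, adjusted p = 0.0301), a WT level 1.92 times the KO level, with a 95% interval of -1.16 to -0.71. The call was lost when any of the 8 arrays was left out (adjusted p 0.0521 to 0.181), while the difference stayed between -1.02 and -0.859, and also with no signal filter (adjusted p = 0.063).

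Within each region the Slc6a3 difference was of similar size but did not pass. It was -0.98 ± 0.13 in SNc (adjusted p = 0.0770) and -0.90 ± 0.13 in VTA (adjusted p = 0.176). The genotype differences in the regions differed by -0.08 ± 0.19 (adjusted p = 0.911), with an interval of -0.54 to 0.37. SNc exceeded VTA in both genotypes, by 0.58 ± 0.13 in WT (adjusted p = 0.117) and by 0.49 ± 0.13 in KO (adjusted p = 0.185). Averaged over both genotypes this region difference was 0.54 ± 0.09, just outside the threshold (adjusted p = 0.0524).

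Slc18a2, which encodes the vesicular monoamine transporter VMAT2, read 10.67 and 10.42 in SNc WT, 10.18 and 10.26 in SNc KO, 10.59 and 10.57 in VTA WT, and 10.19 and 9.96 in VTA KO. All 4 KO arrays lay below all 4 WT arrays, and the groups of each genotype overlapped between regions. The averaged genotype difference was -0.41 ± 0.10 (adjusted p = 0.241) and was not called. It was -0.32 ± 0.13 in SNc (adjusted p = 0.589) and -0.50 ± 0.13 in VTA (adjusted p = 0.295). The region difference in WT was -0.04 ± 0.13 (adjusted p = 0.908), and it was 0.07 after each array was centred on its own median.

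Slc10a4 encodes a transporter-like protein of synaptic vesicles in monoaminergic and cholinergic neurons. It read 11.11 and 11.07 in SNc WT, 10.81 and 10.77 in SNc KO, 10.88 and 10.90 in VTA WT, and 10.80 and 11.04 in VTA KO. SNc WT was above all other arrays, and the VTA KO arrays spanned a wider range than those of the other groups. SNc KO differed from SNc WT by -0.30 ± 0.12 (adjusted p = 0.551) and VTA KO from VTA WT by 0.03 ± 0.12 (adjusted p = 0.954). The second probeset that names Slc10a4 names another symbol as well and was not used.

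Drd2, which encodes the D2 receptor that serves as the autoreceptor of these neurons, was the gene of the 9 called in SNc KO. It read 9.08 and 9.10 in SNc WT, 8.08 and 8.13 in SNc KO, 8.65 and 8.60 in VTA WT, and 8.13 and 8.23 in VTA KO. Duplicates differed by at most 0.102, and the KO groups of both regions overlapped each other below both WT groups. In SNc KO, Drd2 fell by 0.98 on the log2 scale (-0.98 ± 0.10 SE, adjusted p = 0.0380), a WT level 1.98 times the KO level, with a 95% interval of -1.23 to -0.74. Averaged over both regions Drd2 fell by 0.71 in the KO (-0.71 ± 0.07, adjusted p = 0.0301), a WT level 1.64 times that of the KO.

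These calls depended on the arrays used. Leaving out any array of SNc WT, SNc KO or VTA WT ended the SNc call (adjusted p 0.133 to 0.323), as did fitting only the 4 SNc arrays (adjusted p = 0.15), centring each array on its median (adjusted p = 0.0513) or using no signal filter (adjusted p = 0.0775), while the difference stayed between -1.01 and -0.957. Of the 8 fits without 1 array, the averaged Drd2 call passed in that without the second VTA KO array (adjusted p = 0.0403) and in no other (adjusted p 0.0554 to 0.185), and it also ended with no signal filter (adjusted p = 0.063). Between the same SNc groups, summed glutamatergic markers were 9.04 to 9.30 in WT and 10.13 to 10.18 in KO and summed pericyte markers 9.28 to 9.52 and 10.69 to 10.84. The sums add linear signal, so the strongest gene weighs most. Slc17a6 read 9.06 and 8.78 in SNc WT and 10.04 and 9.96 in SNc KO, and Rgs5 8.27 and 7.83, then 10.16 and 9.98. The median difference was 0.85 over the 2 tested glutamatergic markers and 0.70 over the 7 tested pericyte markers. The part of these markers in the Drd2, Slc6a3 and Ddc differences was not tested.

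In VTA the Drd2 genotype difference was -0.44 ± 0.10 (adjusted p = 0.250). In WT, SNc was above VTA by 0.46 ± 0.10 (adjusted p = 0.107), whereas in KO the regions differed by -0.08 ± 0.10 (adjusted p = 0.695), with an interval of -0.32 to 0.17. The test of the difference between the genotype effects in SNc and VTA gave -0.54 ± 0.14 (unadjusted p = 0.00785, adjusted p = 0.382). It therefore did not pass, and 9.89% of all tested probesets reached an unadjusted p under 0.05 in the same test. Unlike Slc6a3, for which the regional difference in the KO was 0.49, Drd2 showed a small one, but no test of this contrast between the genes was made.

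Breakdown was represented by the monoamine oxidase genes, which lie side by side on the X chromosome. Maoa, whose product prefers serotonin and noradrenaline but also oxidises dopamine, read 8.89 and 8.87 in SNc WT, 8.74 and 8.85 in SNc KO, 8.78 and 8.68 in VTA WT, and 8.36 and 8.67 in VTA KO. The averaged genotype difference was -0.15 (adjusted p = 0.732) and the averaged region difference 0.22 (adjusted p = 0.203). Maob read 6.92 and 6.57 in SNc WT, 7.14 on both SNc KO arrays, 6.84 and 7.02 in VTA WT, and 6.56 and 6.93 in VTA KO. Maob, like Gch1, had its highest mean in SNc KO. It differed from SNc WT by 0.40 ± 0.18 (adjusted p = 0.621), and VTA KO from VTA WT by -0.18 ± 0.18 (adjusted p = 0.779). Duplicates of SNc WT were 0.355 apart, so this difference is close to the spread between arrays.

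**Figure D2:**
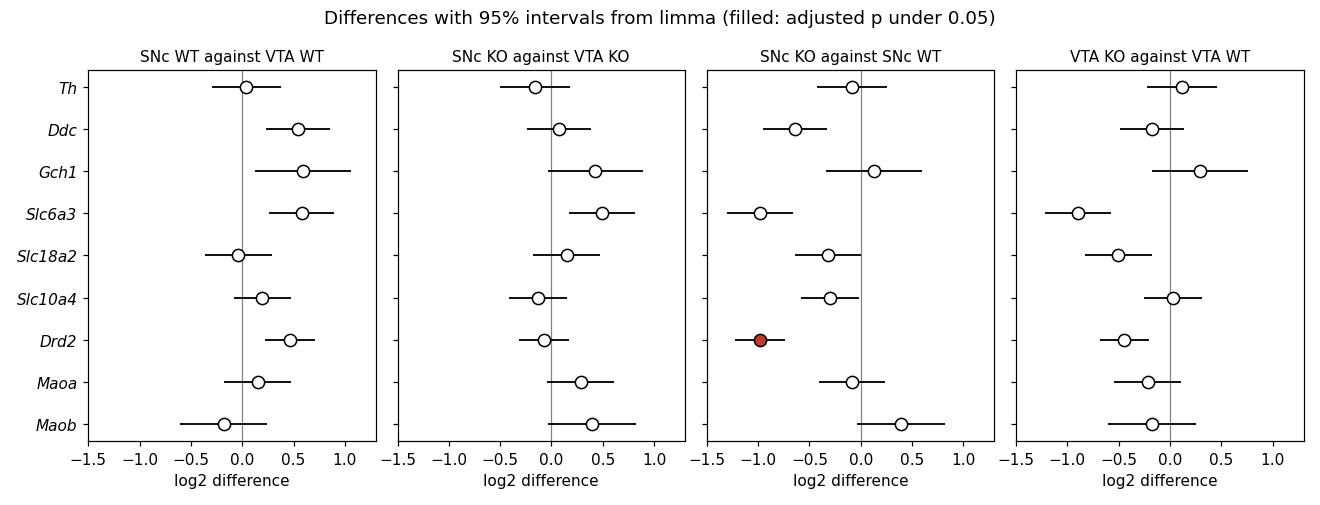
Log2 difference (horizontal axes) of each gene in 4 comparisons, with 95% intervals from limma, where filled points have an adjusted p under 0.05. Drd2 in SNc KO against SNc WT is the filled point, at -0.98, and Slc6a3 has the same size there with a wider interval.

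Counted over the genes, 1 of 9 was called in SNc KO against SNc WT, where 0.149% of all tested probesets were called and 0.0769% were called lower. In the KO against WT average 2 of 9 were called, both lower, where 0.276% of probesets were called and 0.136% were called lower. In SNc WT against VTA WT 0 of 9 were called by limma (0.439% of probesets), with 4 of 9 at an unadjusted p under 0.05 (18.8% of probesets). In VTA KO against VTA WT 0 of 9 were called (0.00904% of probesets), with 3 at an unadjusted p under 0.05 (10.2%). In SNc KO against VTA KO 0 of 9 were called (0.149%), with 1 at an unadjusted p under 0.05 (17.5%). The SNc against VTA average called 0 of 9 (1.56%), with 4 at an unadjusted p under 0.05 (26.8%). Limma called no probeset at all (0%) in the test of the genotype effects against each other, in which 2 of 9 had an unadjusted p under 0.05 (9.89%). At that unadjusted p, 4 of 9 were lower in SNc KO against SNc WT (8.62% of probesets in either direction) and 4 of 9 in the KO average (8.96%).

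The study's thresholds for p, fold and signal were read here as an unadjusted p up to 0.05, a 1.5-fold difference and a signal reaching 60, since the sources do not say whether its p was adjusted. With the p from limma, they took in Ddc, Slc6a3 and Drd2 as lower in SNc KO relative to SNc WT, where 1.76% of probesets were lower. Slc6a3 passed as lower in VTA KO relative to VTA WT (2.42% of probesets). Gch1 passed as higher in SNc WT relative to VTA WT (2.66% of probesets). Slc6a3 and Drd2 were lower in the KO average (1.08% of probesets).

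The arrays themselves show how the genes lay. All 4 KO arrays were below all 4 WT arrays for Slc6a3, Slc18a2 and Drd2, 3 of 9, against 1.31% of the probesets tested. With 2 arrays a side such separation is common: 6 of 9 genes were apart and lower in SNc KO against 20% of probesets, 5 of 9 in VTA KO against 20.7%, and 6 of 9 were apart with SNc WT above VTA WT against 29.6%. The 4 genes apart and higher in SNc KO than in VTA KO (Gch1, Slc6a3, Maoa and Maob) compare with 26.8%. The median difference of the 9 genes was -0.30 in SNc KO against SNc WT, beside 0.01 over all tested probesets, and -0.18 in VTA KO against VTA WT, beside -0.02.

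**Figure D3:**
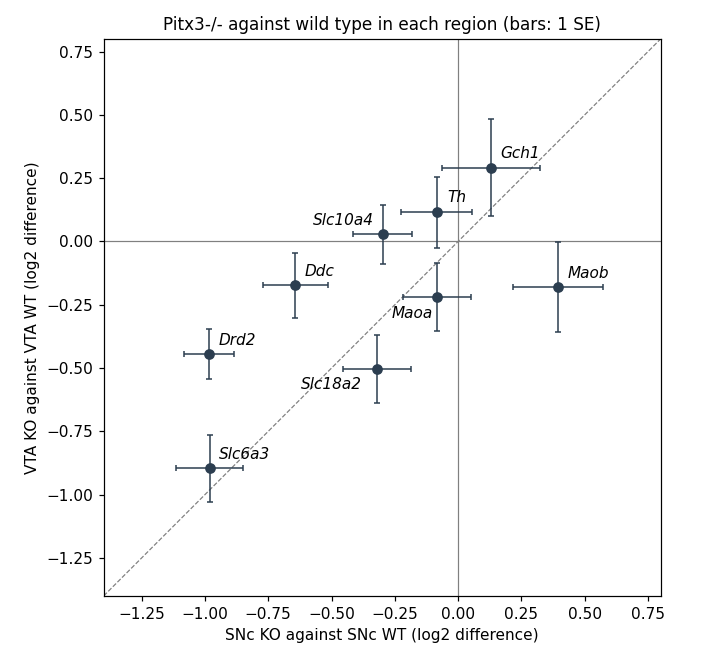
Log2 difference of KO against WT in SNc (horizontal axis) and in VTA (vertical axis) for each gene, with bars of 1 SE and a dashed line where both are equal. Slc6a3 lies near the line at -0.98 and -0.90, while Drd2 (-0.98 and -0.44) and Ddc (-0.64 and -0.17) lie above it.

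Across the 8 arrays the levels of Ddc, Slc6a3 and Drd2 followed each other, with Pearson's r of 0.904 between Ddc and Slc6a3, 0.912 between Ddc and Drd2 and 0.917 between Slc6a3 and Drd2. Slc18a2 followed Slc6a3 (r = 0.822) and Ddc less closely (r = 0.599). Th followed none of them, with r of -0.108 with Slc6a3 and 0.064 with Drd2. The 8 arrays share 4 group means, so these coefficients describe the group pattern and carry no test.

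Outside the lists, 14515 probesets were ranked by Pearson's r with each gene over the 8 arrays. The closest to Slc6a3 were Ift57 (r = 0.987), which encodes a protein of intraflagellar transport, Gpr158 (0.986), which encodes an orphan receptor, and Nos1ap (0.984), which encodes an adaptor of neuronal nitric oxide synthase. Ift57 read 10.31 and 10.24 in SNc WT, 9.30 and 9.57 in SNc KO, 9.79 on both VTA WT arrays, and 9.19 and 9.27 in VTA KO, the same order of groups as Slc6a3. The closest to Drd2 were Cdh8 (r = 0.974), which encodes a cadherin, Cd47 (0.968), which encodes a cell surface receptor, and Lmo3 (0.963), which encodes a LIM-only transcriptional regulator. Lmo3 read 10.53 on both SNc WT arrays, 9.08 and 8.65 in SNc KO, 9.73 and 9.43 in VTA WT, and 8.41 and 8.84 in VTA KO, and its range of 2.13 was wider than the 1.02 of Drd2. For the other genes the closest were Eps15l1 for Gch1 (r = 0.994), Eif3h for Maoa (0.99), Dock4 for Ddc (0.981), Chrnb4, a nicotinic receptor subunit, for Slc10a4 (0.972), Ptprj for Slc18a2 (0.962), Hook2 for Maob (0.955) and Clpsl2 for Th (0.904).

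Another 3 lists gave the surrounding pathway. Of the tetrahydrobiopterin genes beyond Gch1, all 6 on the array were tested and 0 were called by limma in any comparison. Pcbd2, which encodes a carbinolamine dehydratase that recycles the cofactor, had an unadjusted p under 0.05 in SNc KO against VTA KO (0.81 ± 0.33, unadjusted p = 0.0446, adjusted p = 0.273). Its VTA KO arrays read 8.10 and 9.14, further apart than any other duplicates of Pcbd2. The genotype difference of Pcbd2 averaged over both regions was -0.19 (adjusted p = 0.883).

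Of the further metabolism and transport genes, 10 were on the array, 5 were above the floor in some group and tested, and 2 were called lower in SNc KO. Aldh1a1, which encodes an aldehyde dehydrogenase that clears the aldehyde product of dopamine and makes retinoic acid, read 11.26 and 11.38 in SNc WT, 8.33 and 8.69 in SNc KO, 11.38 and 11.16 in VTA WT, and 9.78 and 9.45 in VTA KO. Aldh1a1 fell by 2.81 in SNc KO (-2.81 ± 0.18, adjusted p = 0.0125), and the VTA difference of -1.65 ± 0.18 did not pass (adjusted p = 0.0827). Aldh1a7, a close paralog of Aldh1a1 whose probes may share signal with it, read 7.83 and 7.73 in SNc WT, 5.20 and 5.33 in SNc KO, 6.52 and 6.29 in VTA WT, and 5.76 and 5.24 in VTA KO. All 4 KO values of Aldh1a7 were under the floor, so only a bound can be given: against the floor, SNc KO was at least 3.67-fold lower than SNc WT (adjusted p = 0.0221). Both fell in the KO average, with a difference of -2.23 ± 0.13 for Aldh1a1 (adjusted p = 0.00606), and with no exact size for Aldh1a7 (adjusted p = 0.0132).

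Of the dopamine receptor and signalling genes, 23 were on the array, 22 were tested and 1 was called, lower in SNc KO. Rgs6 encodes a regulator of G-protein signalling that acts on Gi/o proteins, the class to which D2 receptors couple. It read 8.80 and 8.59 in SNc WT, 6.44 on both SNc KO arrays, 7.92 and 7.62 in VTA WT, and 5.86 and 6.23 in VTA KO. Rgs6 fell by 2.25 in SNc KO (-2.25 ± 0.17, adjusted p = 0.0221), and its difference in the KO average was -1.99 ± 0.12 (adjusted p = 0.00623). Rgs6 is the gene the study took from these arrays, so its place in the list is not independent evidence.

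Kcnj6, which encodes the Girk2 potassium channel opened by D2 receptors, read 7.90 and 7.77 in SNc WT, 7.0 and 6.77 in SNc KO, 7.04 and 7.01 in VTA WT, and 6.56 and 7.03 in VTA KO. As for Ddc, the SNc WT arrays of Kcnj6 stood above all others, but neither the SNc KO difference (-0.95 ± 0.18, adjusted p = 0.175) nor the WT region difference (0.81 ± 0.18, adjusted p = 0.109) was called. For Rgs8, another regulator of G-protein signalling, SNc WT exceeded VTA WT by 0.62 ± 0.14 (adjusted p = 0.118). The median SNc KO difference of the 22 signalling genes was 0.05, beside 0.01 over all tested probesets.

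**Figure D4:**
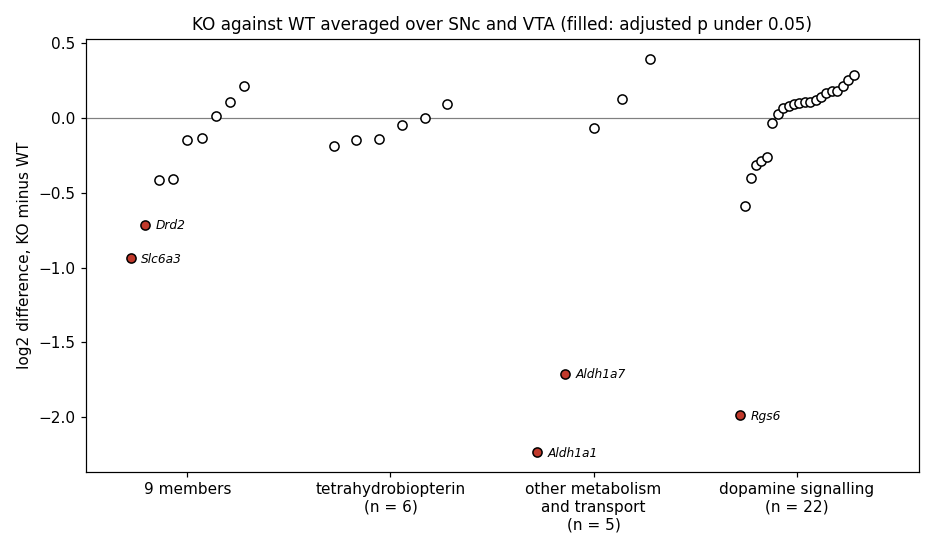
Log2 difference of KO against WT averaged over SNc and VTA (vertical axis) for the 9 genes and for the tested genes of 3 pathway lists, where each point is a gene and filled points have an adjusted p under 0.05. Slc6a3 and Drd2 are filled among the 9 genes, and Aldh1a1 and Rgs6 lie lower, at -2.23 and -1.99. The point of Aldh1a7 is drawn as measured, although its KO values were under the floor.

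Several of these genes are shared with other monoaminergic neurons, for which most markers measured were below the signal floor. Dbh, which converts dopamine to noradrenaline, read 4.56 to 5.08 over the 8 arrays, Phox2a 4.88 to 5.45, Slc6a2 5.46 to 5.86, the serotonin transporter gene Slc6a4 4.79 to 5.43 and Tph2 4.29 to 4.56, all under the floor of 5.91 on every array. Of the serotonergic list, Htr1a, a serotonin receptor gene, was above the floor in some group and tested. It read 5.83 to 6.59 over the arrays, and the first SNc WT array, at 5.83, was under the floor. Summed over a list of 12 general neuronal markers, the log2 signal was 14.17 to 14.37 on all arrays. The sum over 13 dopaminergic neuron genes, among them Aldh1a1, was 12.67 to 12.77 in both WT groups, 12.08 to 12.16 in SNc KO and 12.29 to 12.31 in VTA KO. Without Aldh1a1, the sum over the other 12 was 12.04 to 12.15 in the WT groups, 11.97 to 12.03 in SNc KO and 12.03 to 12.08 in VTA KO. In SNc KO against SNc WT the median difference of the 13 genes was -0.17, with Aldh1a1 and Sox6 called lower (Sox6 -1.41 ± 0.13, adjusted p = 0.0253) and Otx2 called higher (2.13 ± 0.21, adjusted p = 0.0375). Otx2, which the study uses as a VTA marker, read 6.25 and 5.62 in SNc WT and 8.03 and 8.10 in SNc KO. It read 7.76 and 7.79 in VTA WT and 8.41 and 8.65 in VTA KO, so both SNc KO arrays lay above both VTA WT arrays. The SNc WT array at 5.62 was under the floor, so the Otx2 difference of 2.13 has no exact size. The dopaminergic factor Nr4a2 read 10.20 to 10.33 on the WT arrays and 10.09 to 10.14 on the KO arrays.

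Markers of other cell types moved with the groups. The glutamatergic list (3 markers), given with Drd2, summed to 9.88 to 10.07 in VTA WT and 10.09 to 10.27 in VTA KO. The sum over 5 GABAergic markers was 9.82 to 9.94 in the WT groups and 10.26 to 10.50 in the KO groups. Of these 5, Slc32a1, the vesicular GABA transporter gene, rose in the KO average (0.84 ± 0.08, adjusted p = 0.0301). Slc32a1 exceeded its list, whose median KO difference was 0.24 within SNc, 0.14 within VTA and 0.19 averaged over both. In that average, 2 of the 5 were higher at an unadjusted p under 0.05 (8.96% of probesets in either direction). The sum over 8 pericyte and smooth muscle markers, given for SNc above, was 10.66 to 11.12 in VTA WT, and it was 11.02 on the first VTA KO array and 8.81 on the second. The pericyte marker Rgs5 read 10.29 and 6.22 on these VTA KO arrays. Sums over 12 ependymal and ciliated cell markers were 10.19 to 10.36 in SNc and 11.07 to 12.28 in VTA, and over 10 astrocyte and radial glia markers 11.30 to 11.43 in SNc and 11.01 to 11.98 in VTA. Of these 10, 8 were above the floor in some group, such as Fabp7 at 10.26 to 11.27, while Gfap and Aldh1l1 were under it on every array. Slc1a2 fell in the KO average (-0.75 ± 0.09, adjusted p = 0.0494), where 1 astrocyte marker was higher at an unadjusted p under 0.05. Slc1a2 does not stand for its list. The median KO difference of the 8 tested astrocyte markers was 0.23 within SNc, -0.65 within VTA and -0.23 averaged over both. Sums over 8 microglia and macrophage markers were 9.16 to 9.38 in SNc WT, 8.94 to 9.05 in SNc KO and 8.85 to 9.13 in VTA. Of these 8, 3 were tested. The macrophage marker Mrc1 read 6.59 and 6.81 in SNc WT and 5.19 to 5.48 on all other arrays, values all under the floor. It was thus tested through SNc WT alone, and its differences have no exact size. Mrc1 was called lower in SNc KO (adjusted p = 0.0380) and higher in SNc WT than VTA WT (adjusted p = 0.0263). Like Ddc, Mrc1 stood highest in SNc WT. Of the other tested markers, Cx3cr1 did not share this pattern and Tyrobp shared it in part. Cx3cr1 read 6.72 and 7.0 in SNc WT, 7.27 and 6.8 in SNc KO, and 6.77 and 7.02 in VTA WT. Tyrobp read 7.16 and 7.56 in SNc WT, 6.74 and 6.95 in SNc KO, and 6.58 and 7.37 in VTA WT. The called markers named here were chosen after their values were seen, and others were called. Of the 12 ependymal markers, 3 were called lower in SNc WT than VTA WT (0.439% of probesets in either direction). In SNc KO against VTA KO 3 were called lower (0.149%), and 5 in the average over both genotypes (1.56%). In that average, 1 astrocyte marker was called lower and 1 GABAergic marker higher in SNc. The part of these markers in the differences of Slc6a3, Drd2 and the other genes was not tested.

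The arrays were otherwise alike, with medians of 6.11 to 6.24 and 55% to 58.9% of probesets above the floor. The SD between duplicates was 0.241 to 0.252 in 3 groups and 0.376 in VTA KO. Because the model pools the spread of each probeset over the 4 groups, the VTA KO arrays enter the error of every comparison. The Pitx3 probeset read 7.72 and 7.63 in SNc WT, 7.87 and 7.94 in SNc KO, 8.10 and 7.84 in VTA WT, and 8.08 and 7.92 in VTA KO. Both SNc KO arrays were thus above both SNc WT arrays (0.23 ± 0.13, adjusted p = 0.721, not called). No source used here gives the deleted or the probed part of Pitx3, so this signal does not check the genotype labels.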

How the data were processed

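Gene expression summary values on the log2 scale, deposited by the authors, were used as they stand. The authors computed them by RMA (RMA Express by the methods), from arrays of linearly amplified RNA, and also name the LPE algorithm of FlexArray, which was not run here. Their versions and build are not stated in the sources used here. Symbols came from the platform annotation (21789 probesets with 1 symbol, 1621 with several, 12102 with none). The gene IDs of 21698 probesets were found in a RefSeq gene table of GRCm38.p6, and 0 symbols changed.

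Differences were fitted by limma 3.58.1 (R 4.3.3) as a model of the 4 group means over all 8 arrays, moderated by empirical Bayes (2.4 prior and 4 residual degrees of freedom). A probeset was tested where a group averaged 60 or more on the linear scale, which left 22112. P-values were adjusted over all of them by Benjamini-Hochberg. The number of arrays limits the precision.

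The members, gene lists and tests were chosen with earlier results of these data known. The text names all 9 members. Of the pathway lists it names genes with an adjusted p under 0.05, or an unadjusted p of at most 0.05 with a fold of at least 1.5, and at most 6 a list. By Pearson's r it names the closest gene outside the lists for each member and the closest 3 for a called member. Genes with several probesets were read from that of highest mean, and of the marker lists the rule names defining markers, and the other markers given were added after their values were seen. Upstream sequences and starts came from RefSeq, GRCm38.p6. Alternatives were the signal filter, normalization, samples fitted, replicate number, variance trend, array weights, call rule and leaving out each array.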

Additional observations from a re-analysis of the deposited data

How the results depend on the processing

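Across the alternatives tried, 917 of the member differences kept their direction and their side of the threshold, 29 lost a call, 11 gained one and 24 changed sign. The members called changed as follows. In SNc KO against SNc WT, 0 were called with no signal filter, after median subtraction, with only the arrays of the compared groups or with the replicate number as a block, 2 with array weights and 3 by the thresholds of the study. Leaving out 1 array gave 0 to 1. In KO against WT averaged over both regions, 0 were called with no signal filter or with the replicate block, and 0 to 1 without 1 array. In SNc WT against VTA WT, 2 were called with array weights (Ddc and Drd2) and 1 by the study's thresholds, and in VTA KO against VTA WT 1 by those thresholds. In SNc against VTA averaged over both genotypes, 1 was called after median subtraction and 1 with a variance trend (Slc6a3 in each), and 0 to 2 without 1 array, the 2 being Slc6a3 and Gch1 without the second VTA KO array. The filter and leave-one-out alternatives differ by construction in the probesets or arrays fitted, and otherwise the cause was not tested.

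The replicate numbers did not pair the arrays (correlations of deviations 0.006 to 0.098). With them as a block, the adjusted p of Drd2 in SNc KO against SNc WT was 0.105, and it was 0.0797 in the KO average, where that of Slc6a3 was 0.074.

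Differences that changed sign were small. After median subtraction, Slc18a2 in SNc WT against VTA WT was 0.0693 and Th in the region average 0.0302. After quantile normalization, Th in SNc WT against VTA WT was -0.0622, Ddc in SNc KO against VTA KO -0.0296 and Slc18a2 in the region average -0.0405. Leaving out 1 array at a time gave the following ranges. In SNc WT against VTA WT, Slc18a2 was -0.16 to 0.0871 and Th -0.1 to 0.18. In SNc KO against SNc WT, Gch1 was -0.00954 to 0.268 and Th -0.224 to 0.0555. In VTA KO against VTA WT, Maob was -0.362 to 0.00282 and Slc10a4 -0.0929 to 0.15. In SNc KO against VTA KO, Ddc was -0.0369 to 0.19. For the genotype effect in SNc against that in VTA, Gch1 was -0.379 to 0.0541, Maoa -0.0223 to 0.291 and Slc6a3 -0.243 to 0.0747. In the KO average, Th was -0.0545 to 0.0853. In the region average, Slc10a4 was -0.0265 to 0.0949, Slc18a2 -0.00613 to 0.118 and Th -0.13 to 0.00995. Where 1 array of a group remained, it was assumed to vary like the other groups.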
